A study of Arabidopsis thaliana with 54 samples.

Results

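Rosettes of the Arabidopsis thaliana mutant spl7 that had been held without iron and copper were compared with spl7 rosettes supplied with both metals, across all genes. The members were the 3 libraries whose labels give spl7 rosettes without iron and copper and the 3 libraries of the matching spl7 control, 6 of the 54 libraries of the series. Roots and rosettes of spl7 and of the wild type Col-0 were sequenced under iron, copper and combined deficiency. Plants of all groups were grown in hydroponic culture. The spl7 line is SALK_109908c, and both compared groups carried the mutation and had received the same pretreatment of 25 µM iron and 2.5 µM copper, which the labels call a rescue of spl7. The doubly deficient plants (written −Fe−Cu) then received neither metal for 3 days, and the control plants received 25 µM iron and 0.5 µM copper for the same 3 days. Further spl7 rosettes served for comparison: 3 libraries without iron but with 0.5 µM copper (−Fe) and 3 with 25 µM iron but without copper (−Cu), from the same pretreatment. A second spl7 control (3 libraries) had been pretreated with 25 µM iron and 0.1 µM copper. It then received 25 µM iron and 0.5 µM copper for 3 days. Col-0 rosettes under −Fe−Cu and their control (3 libraries each) had been pretreated with 25 µM iron and 0.1 µM copper. The Col-0 groups then received the same doses for 3 days as the spl7 groups of the same name. Genotype and copper pretreatment therefore cannot be told apart in any comparison of the other spl7 groups with Col-0.

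SPL7 is a transcription factor of the SBP family that switches on copper uptake, iron superoxide dismutase and microRNAs against copper proteins when copper is short, so a plant without it cannot mount the usual copper-saving programme. Iron shortage in leaves is read by a cascade of bHLH transcription factors, which induces small signal peptides, the phloem transporter OPT3 and the ubiquitin ligase BTS, while ferritin genes are shut down. Iron and copper meet in the chloroplast, where iron serves the photosystems, cytochromes, ferredoxin and iron-sulfur clusters, and copper serves plastocyanin and copper/zinc superoxide dismutase.

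The labels were first checked against SPL7 itself. SPL7 stood at 11.2, 9.93 and 10.2 CPM (read counts scaled to the depth of each library) in the −Fe−Cu rosettes and at 15.1, 10.6 and 9.05 CPM in the spl7 control. The −Fe and −Cu groups of spl7 lay at 12.2 to 13.4 CPM and at 9.89 to 11.2 CPM. Col-0 rosettes, in contrast, held 23.6 to 24.9 CPM under −Fe−Cu and 23.5 to 29.9 CPM in their control. SPL7 reads were thus fewer in every spl7 library of these groups than in the Col-0 libraries, and the groups of spl7 overlapped (log2 change −0.15 ± 0.13, adjusted p = 0.669).

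The −Fe−Cu libraries held 14711606, 11694883 and 16344287 counts and the control libraries 14075268, 15143015 and 12475278. Leaf markers summed to 29999.9 to 32636.5 CPM in −Fe−Cu and 30490.4 to 35088.1 CPM in control rosettes, whereas the 6 root markers summed to at most 0.427 CPM in −Fe−Cu and 0.844 CPM in control rosettes, with the root hair gene EXPA18 at 0 counts in both. Because whole rosettes were sampled, fewer cells of a type and less RNA per cell cannot be told apart. Some libraries stood apart. Replicate 3 of −Cu and replicate 2 of the Col-0 control had iron gene levels far from those of their own group: FER1 was at 51.2 CPM in the first against 530 and 633 CPM in its 2 companions, and at 39.7 CPM in the second against 597 and 307 CPM. Replicate 3 of −Fe−Cu had lower iron-deficiency transcripts than replicates 1 and 2, and replicate 1 of the spl7 control had the highest transcripts of desiccation genes among the 6. For most lists with calls against the control, counts are given with single libraries left out. Some results of the other comparisons are also given without the −Cu and Col-0 libraries named here. For genes and lists, the other comparisons are not given without replicate 3 of −Fe−Cu.

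Of 20015 genes tested across the 27 rosette libraries, 422 passed between −Fe−Cu and control rosettes at an adjusted p below 0.05, which is 2.11% of the genes. Of these, 180 (0.899%) rose and 242 (1.21%) fell, and 54 (0.27%) rose and 78 (0.39%) fell by at least 2-fold. All adjusted p-values come from edgeR's quasi-likelihood test with Benjamini-Hochberg adjustment over all genes tested, and log2 changes are given with their standard error. The median log2 change over all genes was 0.0013. Replicates did not overlap between the groups for 24.2% of the genes. The number of calls depended on single libraries: it was 115, 113 and 254 without −Fe−Cu replicate 1, 2 or 3, and 42, 278 and 301 without control replicate 1, 2 or 3. The plot of all genes shows where the calls lie.

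**Figure D1:**
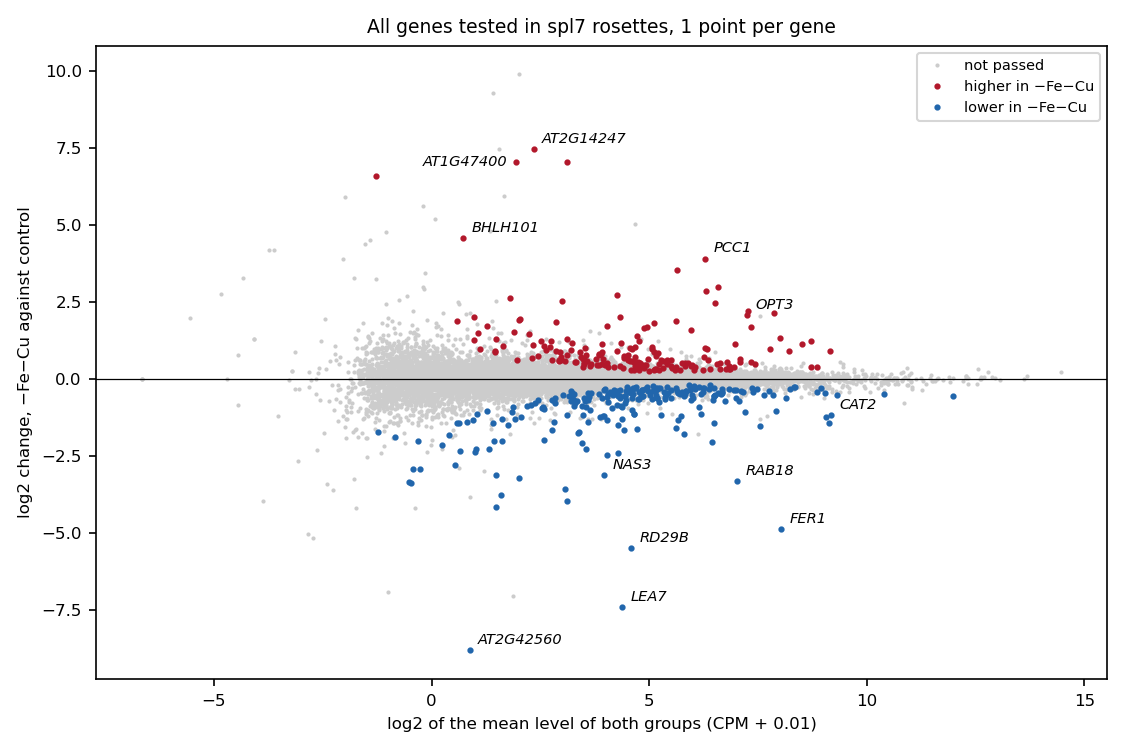
Each point is 1 of the 20015 genes tested, with the log2 of its mean level over both groups (CPM) on the x axis and its log2 change in −Fe−Cu against control spl7 rosettes on the y axis. The 180 genes that rose (red) and the 242 that fell (blue) include iron-deficiency genes such as OPT3 and AT1G47400 above 0, and FER1, NAS3 and the desiccation genes LEA7, RD29B and RAB18 below it.

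The iron regulators and signals are transcription factors, ubiquitin ligases and peptides that read iron shortage. Of 19 members tested, 4 rose and 0 fell, beside 0.899% and 1.21% of all genes, with a median log2 change of 0.66 against 0.0013 over all genes. BTS, the ubiquitin ligase that limits the iron response, stood at 302, 317 and 123 CPM in −Fe−Cu rosettes and at 77.0, 76.2 and 80.3 CPM in control rosettes. All 3 doubly deficient libraries lay above all controls, replicate 3 by the least, and BTS rose 3.17-fold (log2 change 1.67 ± 0.39, adjusted p = 0.0247). BHLH101, a bHLH factor induced by iron shortage, was at 3.89, 4.66 and 0.914 CPM in −Fe−Cu and at 0.281, 0 and 0.0838 CPM in control rosettes (log2 change 4.56 ± 1.07, adjusted p = 0.0256). Its lowest −Fe−Cu value, again that of replicate 3, was above the highest control value.

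AT1G47400 and AT2G30766 are loci without a symbol in the reference names. AT1G47400 was at 10.8, 9.93 and 2.19 CPM in −Fe−Cu rosettes and at 0.141, 0 and 0 CPM in control rosettes, a ratio of 149 with a 95% counting interval of 40.9 to 1237 (log2 change 7.04 ± 1.70, adjusted p = 0.0306). AT2G30766 was at 23.3, 19.2 and 8.59 CPM in −Fe−Cu and at 0.141, 0 and 0.251 CPM in control rosettes (log2 change 7.03 ± 1.80, adjusted p = 0.041). Neither gene overlapped between the groups. The related bHLH genes BHLH38 and BHLH100 were nearly silent in the control but did not pass. BHLH38 had 66 counts in the −Fe−Cu libraries against 1 in the control libraries, a ratio of 64.1 (95% counting interval 11.1 to 2570, adjusted p = 0.398). BHLH100 had 209 against 0, at least 24.2-fold higher against a floor of 3 counts per library (adjusted p = 0.0884). Replicate 3 of −Fe−Cu held only 0.122 CPM of BHLH38 and 0.67 CPM of BHLH100. The list median is 0.66 also with BHLH100 at its bound. PYE, a bHLH repressor, was at 17.2, 14.8 and 5.3 CPM in −Fe−Cu and at 5.7, 5.1 and 5.28 CPM in control rosettes, so that replicate 3 lay among the controls (log2 change 1.2 ± 0.34, adjusted p = 0.07). The calls of these regulators rested on single libraries: 0 of 19 passed edgeR's test without −Fe−Cu replicate 1 or 2 or without any of the 3 control libraries, with 7 or 8 members at an unadjusted p under 0.05 in each case, whereas 7 rose without −Fe−Cu replicate 3. DESeq2's Wald test on all libraries called 7. The log2 change of BTS stayed between 1.45 and 1.99 over the 12 alternatives run, with adjusted p-values of up to 0.138.

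Among the 22 genes of iron transport and chelation tested, 2 rose and 2 fell. OPT3, the oligopeptide transporter that loads iron into the phloem and passes on the leaf iron signal, was at 301, 293 and 137 CPM in −Fe−Cu rosettes and at 61.7, 60.9 and 53.2 CPM in control rosettes. The groups did not overlap, and OPT3 rose 4.15-fold (log2 change 2.05 ± 0.45, adjusted p = 0.0166). The genes of nicotianamine synthase, whose product chelates iron, copper and zinc, moved in opposite directions. NAS4 was at 56.4, 49.3 and 27.7 CPM in −Fe−Cu and at 14.7, 13.8 and 14.3 CPM in control rosettes (log2 change 1.63 ± 0.37, adjusted p = 0.0217), and rose. NAS3 was at 2.39, 3.34 and 3.78 CPM in −Fe−Cu and at 35.0, 27.1 and 22.0 CPM in control rosettes, and fell 8.82-fold (log2 change −3.14 ± 0.51, adjusted p = 0.00358). YSL1, a carrier of metal-nicotianamine complexes, was at 15.6, 14.5 and 16.6 CPM in −Fe−Cu and at 35.0, 31.1 and 38.8 CPM in control rosettes and fell (log2 change −1.16 ± 0.31, adjusted p = 0.0473). None of these 4 genes overlapped between the groups. The ferric reductase gene FRO3 lay just outside the threshold, with 65.4, 58.3 and 30.5 CPM in −Fe−Cu and 20.7, 21.4 and 24.5 CPM in control rosettes (log2 change 1.21 ± 0.33, adjusted p = 0.0543). IRT1, the root iron importer, was at 0.75 to 1.49 CPM in −Fe−Cu and 0.985 to 1.51 CPM in control rosettes. NAS3 passed under all 12 alternatives. OPT3 and NAS4 did not pass without −Fe−Cu replicate 1 or 2 or without any control library (log2 change of OPT3 1.87 to 2.34, adjusted p up to 0.101), and YSL1 did not pass without any 1 of the 6 libraries (adjusted p up to 0.163). Without −Fe−Cu replicate 3, 5 members rose.

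The iron storage genes fell. Of 9 tested, 5 fell and 0 rose, with a median log2 change of −1.81. FER1, which encodes a chloroplast ferritin, was at 15.8, 17.7 and 17.9 CPM in −Fe−Cu rosettes and at 541, 356 and 618 CPM in control rosettes. The groups lay far apart, and FER1 fell 29.5-fold (log2 change −4.88 ± 0.87, adjusted p = 0.00542). The ferritin gene FER3 was at 32.2, 33.2 and 36.0 CPM in −Fe−Cu and at 148, 120 and 154 CPM in control rosettes (log2 change −2.05 ± 0.47, adjusted p = 0.0224). FER4, the ferritin that mitochondria also hold, was at 24.5, 25.7 and 24.0 CPM in −Fe−Cu and at 89.9, 84.7 and 85.8 CPM in control rosettes (log2 change −1.81 ± 0.41, adjusted p = 0.0214). FER2, the seed ferritin, was near 1 CPM in both groups and did not pass (adjusted p = 0.704). VTL1 and VTL2, genes of the vacuolar iron transporter-like family, also fell. VTL1 was at 0.886, 0.527 and 2.01 CPM in −Fe−Cu and at 4.64, 4.57 and 5.7 CPM in control rosettes (log2 change −2.04 ± 0.43, adjusted p = 0.0138). VTL2 was at 3.41, 2.99 and 5.91 CPM in −Fe−Cu and at 16.2 to 19.8 CPM in control rosettes (log2 change −2.09 ± 0.46, adjusted p = 0.0184). All 5 were lower in every doubly deficient library than in every control. Without −Fe−Cu replicate 1 or 2 or control replicate 1, 1 of the 5 passed, and 3 passed without −Fe−Cu replicate 3, while 5 members had an unadjusted p under 0.05 in each of these fits. FER1 passed under all 12 alternatives, with log2 changes of −5.08 to −4.71. Reads of the ferritin copies may be shared between them, and FER1 overlaps AT5G01595 on the opposite strand, so these values carry that uncertainty.

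**Figure D2:**
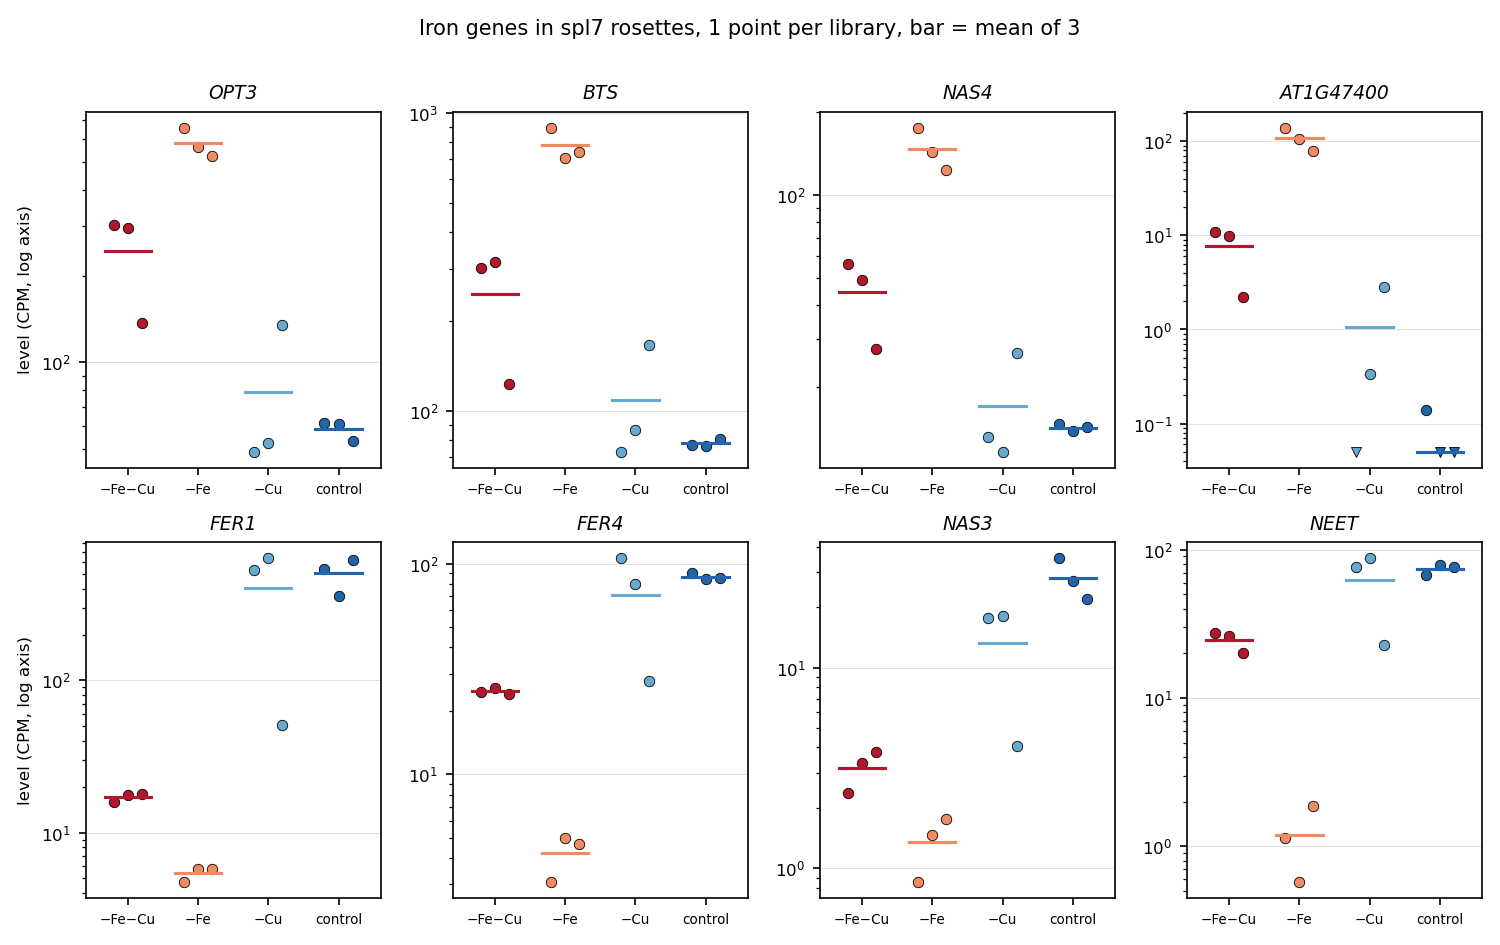
Each panel shows the level of 1 iron gene (CPM, log axis) in spl7 rosettes, with 1 point per library and a bar at the mean of 3, in the order −Fe−Cu, −Fe, −Cu and control; a downward triangle marks a value below the axis. The −Fe−Cu points of OPT3, BTS, NAS4 and AT1G47400 lie above the control and below −Fe, those of FER1, FER4, NAS3 and NEET lie below the control, and replicate 3 of −Cu stands apart from its companions.

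Promoters are shown for 3 of the iron genes that passed, because they hold the palindrome CACGTG, a G-box core that bHLH factors can bind. Each sequence is the 200 bases before the annotated transcript start in the TAIR10.1 RefSeq annotation, read 5′ to 3′ on the gene's strand: OPT3 at chr4:9250344-9250543 (minus strand), BTS at chr3:6273766-6273965 (plus strand) and FER3 at chr3:20816036-20816235 (minus strand). Capitals mark CACGTG, which reads the same on both strands.
OPT3: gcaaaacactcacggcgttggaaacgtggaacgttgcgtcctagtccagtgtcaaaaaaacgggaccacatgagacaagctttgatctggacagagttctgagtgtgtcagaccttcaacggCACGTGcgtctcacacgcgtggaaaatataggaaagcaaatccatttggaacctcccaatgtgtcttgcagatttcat
BTS: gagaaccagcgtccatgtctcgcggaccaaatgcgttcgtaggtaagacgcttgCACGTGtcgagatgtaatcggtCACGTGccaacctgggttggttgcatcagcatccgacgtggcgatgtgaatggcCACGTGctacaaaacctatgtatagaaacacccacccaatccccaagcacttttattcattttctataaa
FER3: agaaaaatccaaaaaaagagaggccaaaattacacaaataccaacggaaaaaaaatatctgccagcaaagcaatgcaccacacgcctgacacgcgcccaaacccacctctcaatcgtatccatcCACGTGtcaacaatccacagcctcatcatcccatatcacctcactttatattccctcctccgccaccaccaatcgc
The palindrome began 78 bases before the start in OPT3 and 76 in FER3, and BTS held 3 copies at 146, 124 and 70 bases. OPT3 and BTS rose whereas FER3 fell, so genes of both directions carried it. The 3 were chosen because they hold CACGTG, so their number is no result; 1547 of 27443 protein-coding genes (5.64%) held it in this window. The match is a description of letters, not of a bound site.

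Among the 13 genes of chloroplast iron-sulfur cluster assembly, 2 fell and 0 rose, with 11 of the 13 log2 changes negative and a median of −0.17. ABCI8, a subunit of the plastid cluster assembly scaffold, was at 160, 164 and 147 CPM in −Fe−Cu rosettes and at 326, 312 and 338 CPM in control rosettes (log2 change −1.05 ± 0.23, adjusted p = 0.0195). NEET, an iron-sulfur protein of the chloroplast and mitochondrion, was at 27.5, 26.2 and 20.2 CPM in −Fe−Cu and at 67.3, 78.4 and 76.3 CPM in control rosettes (log2 change −1.59 ± 0.39, adjusted p = 0.0344). Both genes were lower in every doubly deficient library. Neither passed without any of the −Fe−Cu replicates or without control replicate 1, and in those fits 3 or 4 members had an unadjusted p under 0.05; 1 passed without control replicate 2 or 3.

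The copper genes did not move at this threshold. Of the copper deficiency genes, most of which are known SPL7 targets in the wild type, 8 of 16 had enough counts to be tested; 0 passed edgeR's test, 0 had an unadjusted p under 0.05 and 0 passed DESeq2's Wald test. FSD1, the iron superoxide dismutase that SPL7 induces, was nearly absent in the mutant, at 0.205, 0.351 and 0.183 CPM in −Fe−Cu and at 0.352, 0.132 and 0.419 CPM in control rosettes. Col-0 rosettes held 70.0 to 148 CPM under −Fe−Cu and 143 to 273 CPM in their control, above every value of the 6 spl7 libraries. The copper transporter gene COPT1 was at 41.7, 40.3 and 46.6 CPM in −Fe−Cu and at 45.0, 49.7 and 47.0 CPM in control rosettes, and COPT2 stayed below 1 CPM in all 6. The deposited counts of the microRNA genes MIR397A, MIR398B, MIR398C and MIR408 were 0 in all 6 libraries.

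Copper proteins that microRNAs hold down in copper-short wild-type plants gave the same picture. Of 11 tested, 0 passed with edgeR or with DESeq2's Wald test, and 2 had an unadjusted p under 0.05. The Col-0 rosettes of this series did not show the usual copper-saving pattern under −Fe−Cu against their control either. There 3 of the 11 rose and 0 fell by edgeR's test, and of the 8 copper deficiency genes 0 rose and 1 fell. CSD2, the chloroplast copper/zinc superoxide dismutase, was at 792, 946 and 890 CPM in −Fe−Cu and at 840, 846 and 920 CPM in control rosettes (log2 change 0.01 ± 0.13, adjusted p = 0.983). Its copper chaperone CCS was at 187, 189 and 193 CPM in −Fe−Cu and at 175, 181 and 189 CPM in control rosettes (log2 change 0.06 ± 0.10, adjusted p = 0.825). Both overlapped between the groups. Of the 12 genes of copper delivery, which carry copper to plastocyanin, to the secretory route and to cytochrome oxidase, 0 passed either tool and 0 had an unadjusted p under 0.05, with log2 changes between −0.17 and 0.11. The main plastocyanin gene PETE2 was at 2805, 3079 and 3059 CPM in −Fe−Cu and at 2563, 2770 and 2947 CPM in control rosettes (log2 change 0.11 ± 0.12, adjusted p = 0.738). Of 5 metallothionein and chelator genes tested, the phytochelatin synthase gene PCS1 (AT5G44070) rose, with 67.8, 73.9 and 58.1 CPM in −Fe−Cu and 44.2, 47.2 and 47.9 CPM in control rosettes (log2 change 0.52 ± 0.11, adjusted p = 0.0167). The rise of PCS1 did not pass without −Fe−Cu replicate 1 or 2 or control replicate 1 (adjusted p up to 0.12).

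Photosynthesis transcripts were close to the control level. Of 40 photosystem subunits and antennae, 0 passed with edgeR, 1 had an unadjusted p under 0.05 and 1 fell by DESeq2's Wald test; 2 fell with only the compared groups in the fit, as did 2 of the tetrapyrrole genes below. Their log2 changes lay between −0.40 and 0.31, with a median of 0.01. Of 25 genes of tetrapyrrole synthesis, 0 passed either tool and 3 had an unadjusted p under 0.05 (median log2 change 0.04). Of 10 photosynthetic electron carriers 0 passed either tool and 3 had an unadjusted p under 0.05, and of 5 Rubisco genes 0 passed either tool and 0 had an unadjusted p under 0.05. With only the compared groups in the fit 1 electron carrier fell. The same count fell in a fit of 25 libraries, without −Cu replicate 3 and Col-0 control replicate 2. The leading leaf ferredoxin gene FD2, chosen as an example after its values were seen, was at 1272, 1480 and 1354 CPM in −Fe−Cu and at 2231, 2296 and 2572 CPM in control rosettes. Its groups did not overlap, but it did not pass (log2 change −0.79 ± 0.25, adjusted p = 0.105).

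Genes of chlorophyll breakdown and senescence fell. Of 11 tested, 5 fell and 0 rose, all 11 log2 changes were negative, and the median was −0.50. NAP, a NAC factor that promotes leaf senescence, was at 5.11, 5.36 and 3.72 CPM in −Fe−Cu rosettes and at 17.8, 14.4 and 15.7 CPM in control rosettes (log2 change −1.77 ± 0.30, adjusted p = 0.00435). NYC1, the chlorophyll b reductase, was at 92.5, 95.0 and 97.0 CPM in −Fe−Cu and at 198, 194 and 206 CPM in control rosettes (log2 change −1.07 ± 0.24, adjusted p = 0.0221). Neither gene overlapped between the groups. The senescence factor NAC6 (log2 change −1.46 ± 0.36, adjusted p = 0.0344), the pheophorbide oxygenase gene PAO (−0.49 ± 0.10, adjusted p = 0.0149) and the magnesium dechelatase gene NYE1 (−0.49 ± 0.12, adjusted p = 0.0406) fell as well, NYE1 being named to complete the count. NAP passed under all 12 alternatives, but the count was 1 without −Fe−Cu replicate 1 or 3 or control replicate 1, and 3 without any other library, with 7 or 8 members at an unadjusted p under 0.05 each time.

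Enzymes that remove superoxide and peroxide also fell: 4 of 10 tested, with 0 rises and a median of −0.39. These were the 3 catalase genes and APX1, all of which encode haem enzymes. CAT2 (AT4G35090), the main leaf catalase, was at 339, 326 and 407 CPM in −Fe−Cu rosettes and at 850, 743 and 837 CPM in control rosettes, and fell 2.27-fold (log2 change −1.18 ± 0.19, adjusted p = 0.00389). APX1, the cytosolic ascorbate peroxidase, was at 280, 297 and 333 CPM in −Fe−Cu and at 880, 716 and 855 CPM in control rosettes (log2 change −1.43 ± 0.32, adjusted p = 0.0203). Neither overlapped between the groups. CAT1 and CAT3 fell by 0.65 and 0.57 on the log2 scale (adjusted p = 0.0487 and 0.0405). CAT2 passed under all 12 alternatives, and the count of the list was 1 without −Fe−Cu replicate 1 or 2 or control replicate 1 and 2 without any other library, with 5 or 6 members at an unadjusted p under 0.05.

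Other nutrient genes moved little. Of 11 zinc transport genes tested 2 rose. ZIP1 was at 14.0, 14.5 and 14.5 CPM in −Fe−Cu and at 7.71 to 10.9 CPM in control rosettes (log2 change 0.57 ± 0.14, adjusted p = 0.0316). ZIP4 (AT1G10970) was at 8.66, 9.93 and 9.69 CPM in −Fe−Cu and at 5.98, 6.16 and 6.45 CPM in control rosettes (log2 change 0.60 ± 0.16, adjusted p = 0.0416). Both encode zinc importers of the ZIP family, and neither overlapped between the groups. Without control replicate 2, 1 of them passed, and without any other library 0 passed edgeR's test while 6 members had an unadjusted p under 0.05. Of 9 phosphate starvation genes 2 fell, the phosphate sensor gene SPX1 (log2 change −0.50, adjusted p = 0.0127) and the acid phosphatase gene PAP17 (−0.88, adjusted p = 0.029); with 1 library left out, 0 or 1 passed edgeR's test and 2 to 4 had an unadjusted p under 0.05.

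Genes linked to salicylate rose beside others that did not. Of 14 salicylate defence genes, 2 rose and 0 fell, with a median log2 change of 0.03. In the fit of 25 libraries 2 rose and 1 fell, and with only the compared groups in the fit 3 rose and 2 fell. WRKY70, a transcription factor that favours salicylate over jasmonate signalling, was at 105, 112 and 63.7 CPM in −Fe−Cu rosettes and at 20.5, 44.2 and 28.3 CPM in control rosettes, and rose 2.99-fold (log2 change 1.58 ± 0.32, adjusted p = 0.0102). NIMIN1, which encodes a partner of the salicylate receptor NPR1, was at 8.32, 7.03 and 3.72 CPM in −Fe−Cu and at 1.13, 2.72 and 1.09 CPM in control rosettes (log2 change 1.91 ± 0.43, adjusted p = 0.0221). Neither overlapped between the groups. The pathogenesis-related gene PR1 was at 0.205, 26.1 and 2.32 CPM in −Fe−Cu and at 8.02, 7.15 and 2.6 CPM in control rosettes (adjusted p = 0.864). PR2, which encodes a beta-glucanase, was at 14.9, 48.8 and 30.8 CPM in −Fe−Cu and at 80.1, 164 and 80.5 CPM in control rosettes (log2 change −1.80 ± 0.59, adjusted p = 0.122). Both were named after their values were seen. PR1 overlapped between the groups and PR2 did not, so the members of the list did not move as 1 block.

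Other genes outside the salicylate list were among the 10 largest rises of the comparison. PCC1, a small gene controlled by pathogens and the circadian clock, was at 141, 174 and 124 CPM in −Fe−Cu and at 3.31, 16.3 and 9.64 CPM in control rosettes, and rose 14.9-fold (log2 change 3.90 ± 0.76, adjusted p = 0.00849). LURP1, named for its late rise in response to a downy mildew, was at 127, 177 and 116 CPM in −Fe−Cu and at 6.76, 38.0 and 13.4 CPM in control rosettes (log2 change 2.83 ± 0.65, adjusted p = 0.023). Both were higher in all 3 doubly deficient libraries, which the rule for naming the largest rises required. WRKY54, a close relative of WRKY70 (log2 change 2.70 ± 0.60, adjusted p = 0.0195), the beta-glucanase gene BG3 (2.63 ± 0.44, adjusted p = 0.00389) and the locus AT3G22235 (3.53 ± 0.69, adjusted p = 0.00836) rose too. The locus AT3G56360 was at 202, 185 and 124 CPM in −Fe−Cu and at 20.6, 33.8 and 10.3 CPM in control rosettes (log2 change 2.96 ± 0.76, adjusted p = 0.0406). BG3 passed under all 12 alternatives and PCC1 under all but that without control replicate 1 (adjusted p = 0.0917), and AT3G56360 did not pass without any 1 of the 6 libraries. The 2 salicylate calls became 0 without −Fe−Cu replicate 1 or 2 or control replicate 1, with 4 of 14 at an unadjusted p under 0.05, and 1 without control replicate 3.

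The jasmonate list held 18 genes, of which 1 fell and 0 rose. VSP2, a vegetative storage protein gene and a common jasmonate marker, was at 108, 88.9 and 86.5 CPM in −Fe−Cu rosettes and at 418, 256 and 159 CPM in control rosettes, and fell 2.94-fold (log2 change −1.56 ± 0.30, adjusted p = 0.00773). The controls spread widely but lay above every doubly deficient library. VSP2 did not pass without control replicate 1 (adjusted p = 0.0958), and 2 other members rose without −Fe−Cu replicate 3. Replicate 1 of −Fe−Cu alone was high in JAZ7, a jasmonate-induced repressor, at 6.0 CPM against 1.58 and 0.305 CPM in replicates 2 and 3 and 0.141 to 0.861 CPM in control rosettes (adjusted p = 0.183; named after its values were seen).

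Genes of abscisic acid and desiccation fell as well. Of 8 tested, 5 fell and 0 rose, with a median log2 change of −1.02. RD29B, a desiccation-responsive gene, was at 1.57, 1.23 and 0.427 CPM in −Fe−Cu rosettes and at 114, 21.1 and 5.45 CPM in control rosettes (log2 change −5.50 ± 1.12, adjusted p = 0.0114). The dehydrin gene RAB18 (AT5G66400) was at 27.4, 27.4 and 16.8 CPM in −Fe−Cu and at 579, 90.2 and 42.9 CPM in control rosettes (log2 change −3.32 ± 0.68, adjusted p = 0.0114). HAI1, a protein phosphatase of abscisic acid signalling, was at 5.66, 5.89 and 3.6 CPM in −Fe−Cu and at 53.1, 19.5 and 10.4 CPM in control rosettes (log2 change −2.49 ± 0.48, adjusted p = 0.00833). In all of them the groups did not overlap, and control replicate 1 was far above the other two controls. RD20, a caleosin gene (log2 change −1.16 ± 0.24, adjusted p = 0.0114), and NCED3, the gene of the limiting enzyme of abscisic acid synthesis (−0.88 ± 0.23, adjusted p = 0.0467), also fell, NCED3 being named to complete the count.

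LEA7, LEA4-5 and AT2G42560 were among the 10 largest falls of the comparison. LEA7 and LEA4-5 encode late embryogenesis abundant proteins, a group known to protect drying cells, but other genes of that name did not pass, among them LEA14 (log2 change 0.02, adjusted p = 0.98) and LEA3 (−0.17, adjusted p = 0.82), both looked up afterwards. LEA7 was at 0.205, 0.176 and 0.305 CPM in −Fe−Cu rosettes and at 105, 15.9 and 3.35 CPM in control rosettes (log2 change −7.42 ± 1.2, adjusted p = 0.00358). LEA4-5 was at 1.02, 1.49 and 1.4 CPM in −Fe−Cu and at 36.4, 7.55 and 2.6 CPM in control rosettes (log2 change −3.59 ± 0.70, adjusted p = 0.00855). AT2G42560, annotated with a late embryogenesis abundant domain, had 0 counts in −Fe−Cu and 156 in control rosettes, at least 16.9-fold lower in −Fe−Cu against a floor of 3 counts per library. Each of these was highest in control replicate 1. Without that library 0 of the 8 members of the desiccation list passed edgeR's test, with 5 at an unadjusted p under 0.05, while the counts were 3, 2 and 1 without −Fe−Cu replicate 1, 2 or 3, and 5 and 4 without control replicate 2 or 3. LEA7 passed under all 12 alternatives, with log2 changes between −7.95 and −5.36. RAB18 ranged between −3.82 and −1.49 (adjusted p up to 0.218).

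The same genes were higher still in the spl7 control pretreated with 0.1 µM copper, which takes no part in the comparison: there RD29B was at 260, 164 and 306 CPM and RAB18 at 1430, 754 and 1550 CPM. Each of these values lay above all 3 libraries of the spl7 control pretreated with 2.5 µM copper, and the part of the control's own level in the falls was not tested.

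Promoters of RD29B and RAB18 are shown because both genes fell and hold ACGTG, the core of the abscisic acid response element. They are again 200 bases before the annotated start in the TAIR10.1 RefSeq annotation, RD29B at chr5:21236821-21237020 (plus strand) and RAB18 at chr5:26519448-26519647 (minus strand), read 5′ to 3′ on the gene's strand. Capitals mark ACGTG or, on the other strand, CACGT.
RD29B: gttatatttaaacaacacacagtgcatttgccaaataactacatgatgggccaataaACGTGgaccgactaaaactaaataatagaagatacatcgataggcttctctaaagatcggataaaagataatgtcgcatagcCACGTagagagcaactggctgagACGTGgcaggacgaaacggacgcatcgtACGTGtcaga
RAB18: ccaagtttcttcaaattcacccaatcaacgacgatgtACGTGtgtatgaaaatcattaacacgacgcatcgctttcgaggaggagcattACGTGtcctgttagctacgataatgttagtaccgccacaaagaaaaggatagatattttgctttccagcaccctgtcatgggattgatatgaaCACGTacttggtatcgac
RD29B held 4 matches and RAB18 held 3. Of the 5 desiccation genes that fell, 3 (60%) held ACGTG on either strand in this window, the other being RD20. Among protein-coding genes 5430 of 27443 (19.8%) held it. The list was made of abscisic acid and desiccation genes, and its 3 members that did not pass were not searched. The share of 60% is thus no result about the fall. Every CACGTG also contains ACGTG, so the matches of the iron and desiccation genes are not separate.

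**Figure D3:**
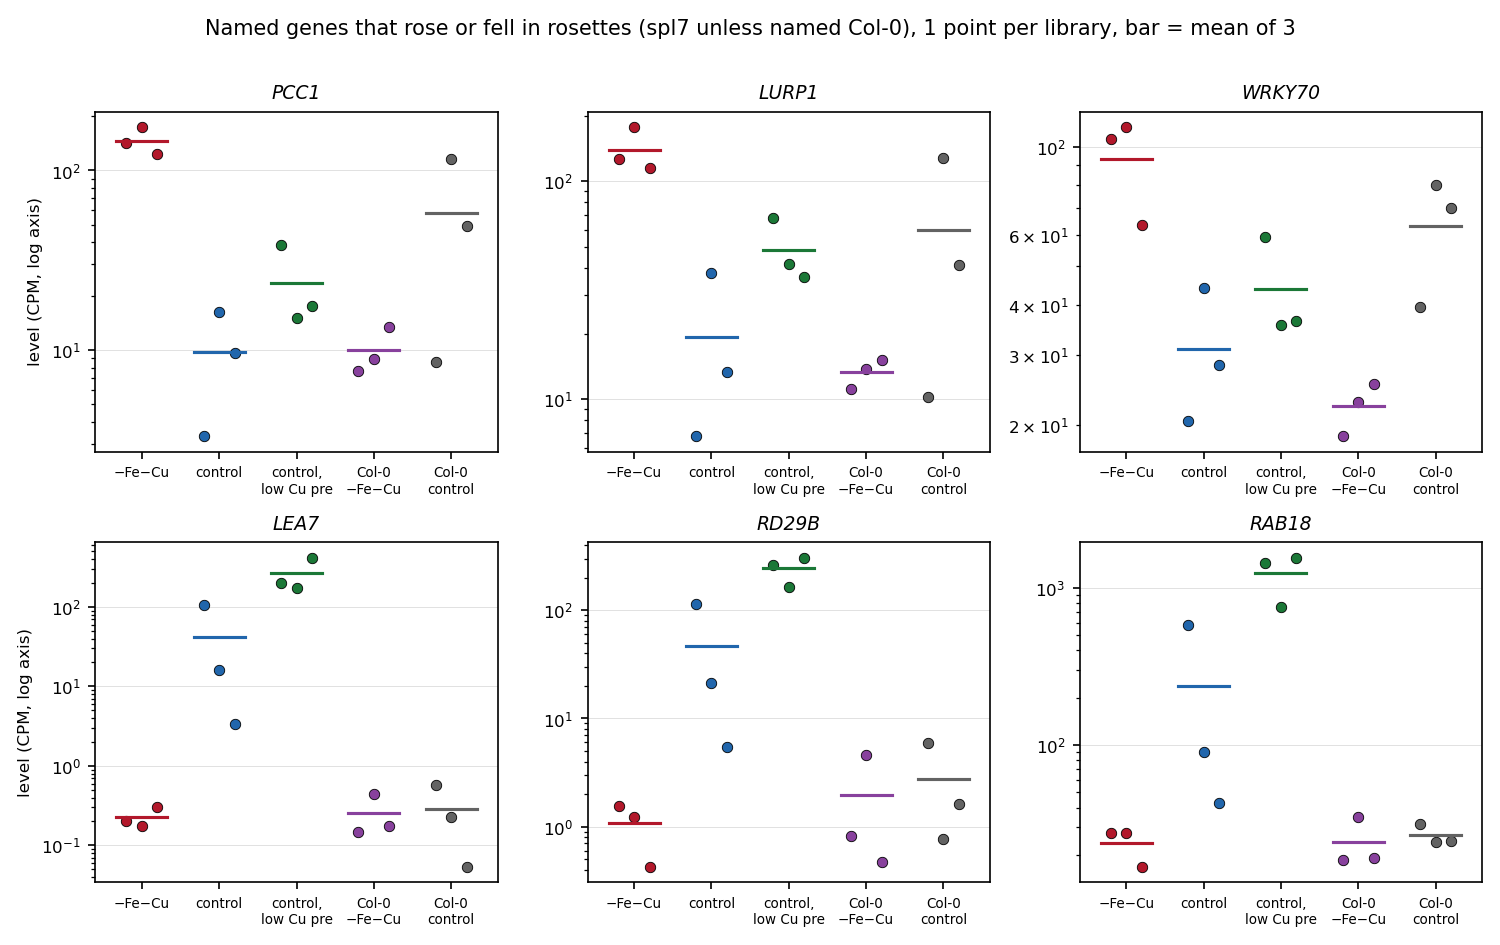
Each panel shows the level of 1 gene (CPM, log axis) with 1 point per library and a bar at the mean of 3, for spl7 −Fe−Cu, the spl7 control, the spl7 control pretreated with 0.1 µM copper, Col-0 −Fe−Cu and the Col-0 control. PCC1, LURP1 and WRKY70 are highest in spl7 −Fe−Cu among the 3 spl7 groups plotted, and LEA7, RD29B and RAB18 are lowest there, with a wide spread among the spl7 controls.

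For the remaining lists 0 members passed edgeR's test between −Fe−Cu and control rosettes. All 13 anthocyanin genes tested had negative log2 changes (median −0.63), 7 with an unadjusted p under 0.05 and 0 by the Wald test. All 7 low-oxygen genes had positive ones (median 0.68), 2 with an unadjusted p under 0.05 and 0 by the Wald test. The counts at an unadjusted p under 0.05 were 5 of 19 circadian clock genes, 6 of 13 aliphatic glucosinolate genes, 4 of 7 nitrate assimilation genes and 2 each of 10 sulfate, 9 ethylene and 9 oxidative and mitochondrial stress genes. Of these the Wald test called 3 glucosinolate genes and 1 nitrate gene, all lower in −Fe−Cu, and no other. With only the compared groups in the fit, edgeR called 4 anthocyanin, 4 glucosinolate, 4 nitrate and 2 oxidative and mitochondrial stress genes and 1 leaf marker lower and 1 clock gene higher, and in the fit of 25 libraries 2 nitrate genes and 1 glucosinolate gene lower. The leaf and flower markers had 0 calls by either tool with all libraries, with 1 and 0 of 6 at an unadjusted p under 0.05.

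Iron-deficiency genes stood lower in −Fe−Cu rosettes than in rosettes that lacked iron only. The comparison of −Fe−Cu with −Fe rosettes shares the −Fe−Cu libraries with the comparison above, so each is given by its own values. Between −Fe−Cu and −Fe, 3618 genes passed (18.1%), 2065 higher (10.3%) and 1553 lower (7.76%) in −Fe−Cu. Of the 19 iron regulators and signals, 12 were lower in −Fe−Cu than in −Fe and 0 higher, with a median log2 change of −1.24. BHLH38 was at 2.32, 2.64 and 0.122 CPM in −Fe−Cu and at 328, 256 and 211 CPM in −Fe rosettes (log2 change −7.39 ± 0.76, adjusted p = 3.51e-06). BTS was at 302, 317 and 123 CPM in −Fe−Cu and at 890, 705 and 739 CPM in −Fe rosettes (log2 change −1.66 ± 0.38, adjusted p = 0.00377). No −Fe−Cu library reached the lowest −Fe library for either gene. Of the 22 iron transport genes, 10 were lower and 2 higher in −Fe−Cu. OPT3 was at 656, 563 and 525 CPM in −Fe, which gave a log2 change of −1.26 ± 0.43 in −Fe−Cu against −Fe (adjusted p = 0.043).

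Some of the genes that fell against the control stood higher in −Fe−Cu than in −Fe. NEET was at 27.5, 26.2 and 20.2 CPM in −Fe−Cu and at 1.14, 0.573 and 1.87 CPM in −Fe rosettes, 20.2-fold higher in −Fe−Cu (log2 change 4.33 ± 0.60, adjusted p = 3.81e-05). FER4 was at 24.0 to 25.7 CPM in −Fe−Cu and at 3.07, 4.97 and 4.69 CPM in −Fe rosettes (log2 change 2.55 ± 0.51, adjusted p = 0.00125), the 1 storage gene of 9 that passed. FER1 was at 15.8 to 17.9 CPM in −Fe−Cu and at 4.72, 5.79 and 5.8 CPM in −Fe rosettes without passing (adjusted p = 0.248). The mean of −Fe−Cu lay between the means of −Fe and control for 16 of 19 iron regulators (84.2%), 15 of 22 iron transport genes (68.2%), 8 of 9 storage genes (88.9%) and 10 of 13 iron-sulfur genes (76.9%), beside 47.1% of all genes tested. It lay between them for 17 of 40 photosystem genes (42.5%) and 10 of 25 tetrapyrrole genes (40%).

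Photosynthesis genes separated the iron-free treatments. Of 40 photosystem subunits and antennae, 38 were higher and 1 lower in −Fe−Cu than in −Fe, with a median log2 change of 0.77. The photosystem I subunit gene PSAN, an example chosen after its values were seen like the next 2, was at 1830, 1937 and 1775 CPM in −Fe−Cu and at 288, 500 and 513 CPM in −Fe rosettes (log2 change 2.09 ± 0.20, adjusted p = 3.46e-07). PSAF, another subunit of photosystem I, was at 4726, 4975 and 4791 CPM in −Fe−Cu and at 1122, 1693 and 1720 CPM in −Fe rosettes (log2 change 1.68 ± 0.17, adjusted p = 1.19e-06). LHCB4.3, an antenna protein gene and the exception, was at 58.7, 69.1 and 70.8 CPM in −Fe−Cu and at 83.0, 97.5 and 78.8 CPM in −Fe rosettes (log2 change −0.38 ± 0.11, adjusted p = 0.0206). Of 25 tetrapyrrole genes 20 were higher and 0 lower, and HEMA1, which encodes glutamyl-tRNA reductase at the start of the pathway and was also chosen afterwards, was at 381, 409 and 433 CPM in −Fe−Cu and at 46.0, 63.0 and 76.6 CPM in −Fe rosettes (log2 change 2.72 ± 0.23, adjusted p = 8.03e-08). The groups did not overlap for any of these 4 genes. FD2 stood at 284, 405 and 441 CPM in −Fe rosettes, and was thus higher in −Fe−Cu (log2 change 1.86 ± 0.26, adjusted p = 3.19e-05). Of the electron carriers 7 of 10, of the iron-sulfur genes 7 of 13 and of the superoxide and peroxide enzymes 6 of 10 were higher in −Fe−Cu, and none lower.

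Anthocyanin genes ran the other way, with 12 of 13 lower and 1 higher in −Fe−Cu than in −Fe. The dihydroflavonol reductase gene DFR, chosen as an example after its values were seen, was at 1.57, 1.76 and 2.25 CPM in −Fe−Cu and at 22.3, 11.1 and 7.91 CPM in −Fe rosettes (log2 change −2.87 ± 0.53, adjusted p = 0.000603). Of 13 aliphatic glucosinolate genes 10 were lower and 0 higher, and of 14 salicylate genes 6 were lower and 0 higher. PCC1 and WRKY70, which had risen against the control, did not differ from −Fe beyond the threshold (adjusted p = 0.945 and 0.807). Of 8 abscisic acid and desiccation genes 0 passed between −Fe−Cu and −Fe, with 2 at an unadjusted p under 0.05 and a median log2 change of 0.20. Of the copper lists, 1 of 8 deficiency genes was higher and 1 lower in −Fe−Cu than in −Fe, 2 of 11 microRNA-targeted genes were higher and 4 lower, and 4 of 12 delivery genes were higher and 3 lower. CSD2 was at 792, 946 and 890 CPM in −Fe−Cu and at 567, 700 and 648 CPM in −Fe rosettes (log2 change 0.46 ± 0.13, adjusted p = 0.0132). LAC12, a laccase gene, was at 1.64, 0.879 and 0.975 CPM in −Fe−Cu and at 30.4, 15.3 and 28.5 CPM in −Fe rosettes (log2 change −4.39 ± 0.84, adjusted p = 0.000881). Of 19 clock genes 6 were higher and 3 lower in −Fe−Cu than in −Fe, and the part of the time of harvest was not tested. Leaf markers summed to 29999.9 to 32636.5 CPM in −Fe−Cu and 20419 to 24661.3 CPM in −Fe rosettes. These markers include photosynthesis genes such as RBCS1A and LHCB2.1, and 5 of the 6 were higher in −Fe−Cu. Their sum is thus no separate measure of leaf cells. The part of leaf cell number or condition in the photosynthesis values was not tested. Without −Fe replicate 1 the number of calls was 1898.

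**Figure D4:**
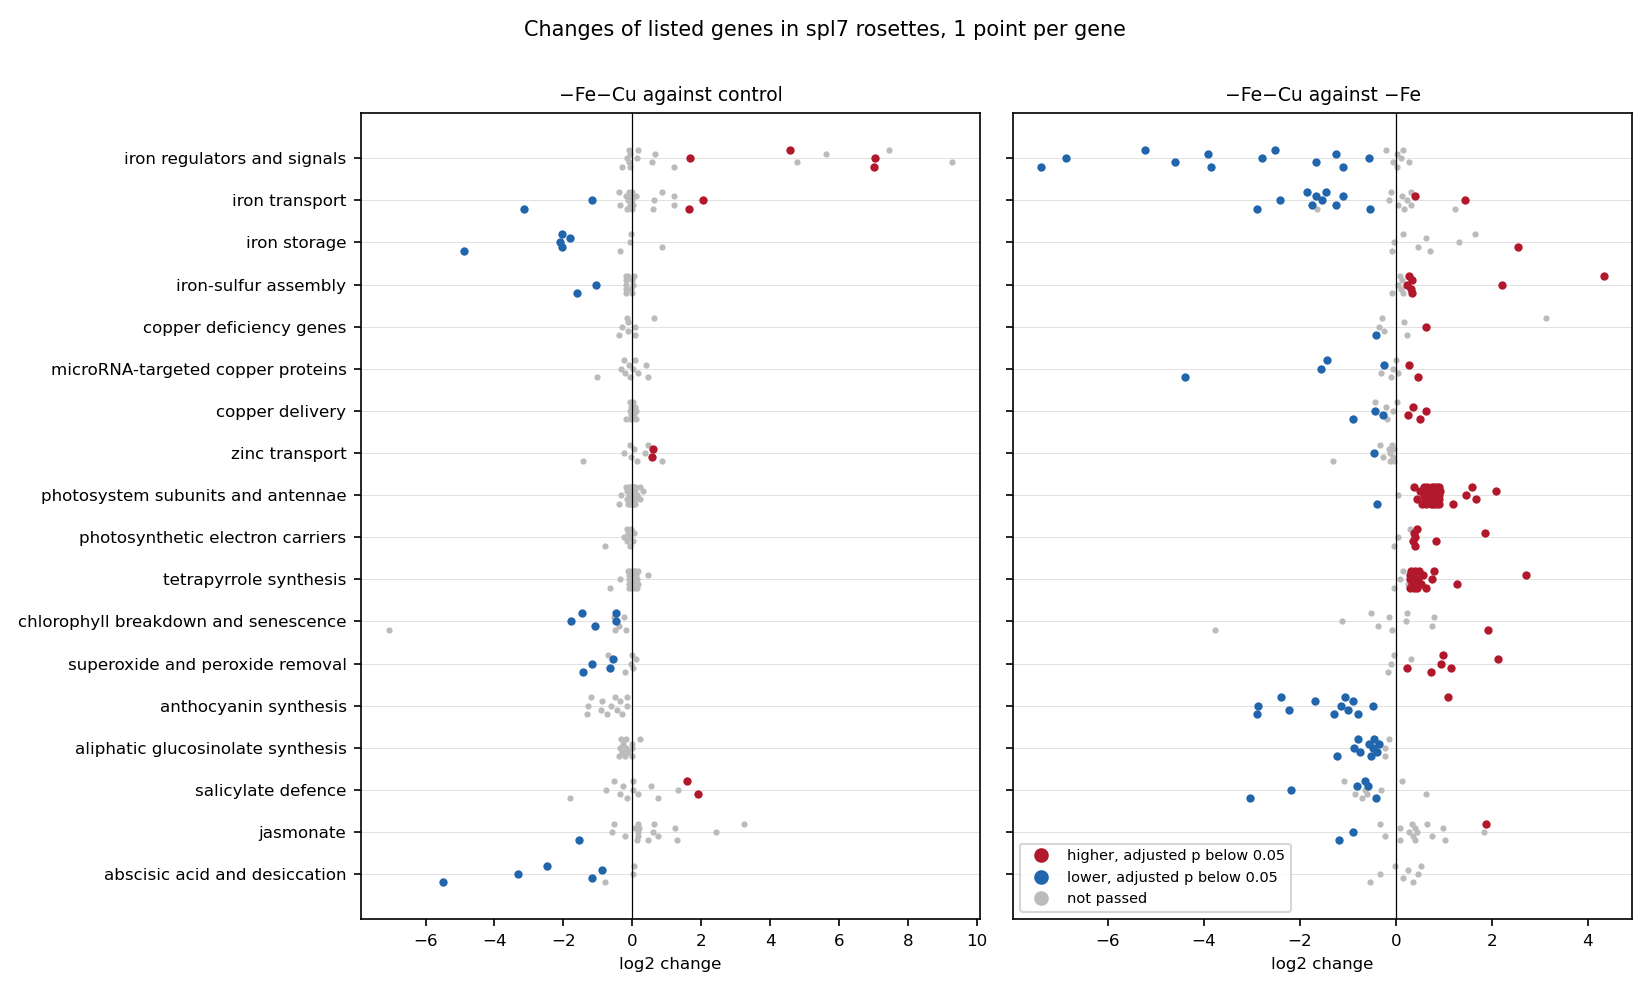
Each grey point is the log2 change of 1 tested member of a gene list in spl7 rosettes and coloured points passed the test, on the left for −Fe−Cu against control and on the right for −Fe−Cu against −Fe. Photosystem genes centre on a median of 0.01 on the left and 0.77 on the right, and iron regulators on 0.66 on the left and −1.24 on the right.

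The comparison of −Fe−Cu with −Cu rosettes, which again shares the −Fe−Cu libraries, gave 2654 calls (13.3%), 1226 higher (6.13%) and 1428 lower (7.13%) in −Fe−Cu. BTS, OPT3 and NAS4 were higher in −Fe−Cu by 1.18 ± 0.38, 1.62 ± 0.44 and 1.34 ± 0.36 on the log2 scale (adjusted p = 0.0429, 0.0171 and 0.0165), and FER1 was at 15.8, 17.7 and 17.9 CPM in −Fe−Cu and at 530, 633 and 51.2 CPM in −Cu rosettes (log2 change −4.56 ± 0.86, adjusted p = 0.00195). Even the deviating replicate 3 of −Cu was above the doubly deficient ones for FER1, whereas for OPT3 it lay at 135 CPM, among values of 48.8 and 52.4 CPM in its companions and 137 to 301 CPM in −Fe−Cu. With that library and replicate 2 of the Col-0 control left out of the fit, BTS, OPT3 and NAS4 were higher by 1.63, 2.27 and 1.83 (adjusted p = 0.00334, 0.00051 and 0.00082). In that fit 5 iron regulators were higher and 1 lower in −Fe−Cu than in −Cu, and 7 iron transport genes were higher and 4 lower. With all libraries 2 iron regulators were higher and 0 lower, and 3 iron transport genes were higher and 2 lower. Over all genes the number of calls rose as well, to 3645 without −Cu replicate 3 alone, and it was 856 without −Cu replicate 2. With only the compared groups in the fit most of the calls of this comparison were lost, as counted in the section on processing.

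Electron carriers and iron-sulfur genes were lower in −Fe−Cu than in −Cu, 8 of 10 and 8 of 13, with 0 higher in either list (10 of 10 and 12 of 13 in the fit of 25 libraries). FD2 was at 1272, 1480 and 1354 CPM in −Fe−Cu and at 2716, 3014 and 1146 CPM in −Cu rosettes (log2 change −0.74 ± 0.25, adjusted p = 0.049), with replicate 3 of −Cu below the −Fe−Cu libraries and the other two above them. Of 11 chlorophyll breakdown and senescence genes 7 were lower and 0 higher, and of 10 superoxide and peroxide enzymes 5 were lower and 0 higher. Of 40 photosystem genes 2 were lower and 0 higher (14 and 0 in the fit of 25 libraries), with a median log2 change of −0.22. Of 25 tetrapyrrole genes 2 were lower and 0 higher (5 and 0 in that fit). Of 8 abscisic acid and desiccation genes 5 were lower (3 in the fit of 25 libraries). Of the copper lists, 0 of 8 deficiency genes, 0 of 11 microRNA-targeted genes and 0 of 12 delivery genes passed edgeR's test between −Fe−Cu and −Cu, with 3, 3 and 2 at an unadjusted p under 0.05. In the fit of 25 libraries 1 deficiency gene was lower in −Fe−Cu, 1 microRNA-targeted gene was higher and 1 lower, and 1 delivery gene was lower. That deficiency gene was FSD1 (log2 change −3.14, adjusted p = 0.0209), at 0.205, 0.351 and 0.183 CPM in −Fe−Cu and at 3.75, 0.25 and 0.217 CPM in −Cu, so that replicate 1 of −Cu held most of its reads. Clock genes differed, with 4 of 19 higher and 8 lower in −Fe−Cu; the evening complex gene ELF4, named after its values were seen, was at 22.2, 26.3 and 19.0 CPM in −Fe−Cu and at 44.8, 71.9 and 42.5 CPM in −Cu rosettes (log2 change −1.24 ± 0.15, adjusted p = 8.46e-05). The groups did not overlap for ELF4, and the part of the time of harvest in this comparison was not tested.

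A further contrast asked whether the doubly deficient level departs from the sum, on the log2 scale, of the changes under −Fe and −Cu alone. It was passed by 913 genes (4.56%), 537 above the sum (2.68%) and 376 below it (1.88%). Of the 19 iron regulators 7 lay below and 0 above, and of 22 iron transport genes 6 lay below and 1 above. FRO3 was at 65.4, 58.3 and 30.5 CPM in −Fe−Cu, at 321, 248 and 246 CPM in −Fe, at 24.4, 26.6 and 36.3 CPM in −Cu and at 20.7, 21.4 and 24.5 CPM in control rosettes. It thus lay far closer to the control than the −Fe libraries did, and departed from the sum by −2.81 ± 0.45 (adjusted p = 0.000652). Among the photosystem genes 14 of 40 lay above the sum and 0 below, and HEMA1 departed by 3.05 ± 0.31 (adjusted p = 1.06e-05) and NEET by 4.60 ± 0.73 (adjusted p = 0.000542). These counts lean on the deviating −Cu library: in the fit of 25 libraries 634 genes passed, with 3 regulators below the sum and 5 photosystem genes above it. The departure in that fit was −2.61 for FRO3 and 4.19 for NEET (adjusted p = 0.00119 and 6.87e-05). The total was 1759 without −Cu replicate 2 and 535 without control replicate 3, and it was lower still with only the compared groups in the fit. Of 19 clock genes 4 lay above the sum and 5 below it (3 and 5 in the fit of 25 libraries).

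Col-0 rosettes under the same treatment gave a different pattern. The difference of the responses, spl7 minus Col-0, passed for 1660 genes (8.29%), 776 higher (3.88%) and 884 lower (4.42%) in spl7. PCC1, which rose in spl7, was at 7.63, 8.93 and 13.5 CPM in Col-0 −Fe−Cu and at 8.61, 116 and 49.3 CPM in the Col-0 control, a log2 change of −2.50 (adjusted p = 0.0398) and a difference of responses of 6.40 ± 1.06 (adjusted p = 0.000404). In the fit of 25 libraries, without the control library at 116 CPM, the Col-0 change of PCC1 was −1.53 and did not pass (adjusted p = 0.144). WRKY70 was at 18.7, 22.9 and 25.3 CPM in Col-0 −Fe−Cu and at 39.5, 80.0 and 70.3 CPM in its control, and the difference of responses was 3.08 ± 0.45 (adjusted p = 0.000119). WRKY70 thus rose in spl7 and fell in Col-0, also in the fit of 25 libraries (Col-0 log2 change −1.30, adjusted p = 0.0162), whereas PCC1 overlapped between the Col-0 groups. In the salicylate list 4 of 14 differences passed and all were positive. CAT2 was at 762, 825 and 877 CPM in Col-0 −Fe−Cu and at 513, 339 and 461 CPM in the Col-0 control, so it rose in Col-0 and fell in spl7, with a difference of −2.09 ± 0.27 (adjusted p = 3.14e-05). The copper protein gene CSD2 differed as well. It was at 1026, 874 and 1019 CPM in Col-0 −Fe−Cu and at 428, 557 and 387 CPM in its control, and the difference of responses was −1.08 ± 0.18 (adjusted p = 0.000378).

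Iron genes were set against Col-0 in the same way. OPT3 was at 128, 131 and 97.1 CPM in Col-0 −Fe−Cu and at 59.7, 226 and 76.8 CPM in the Col-0 control, the highest value being that of replicate 2. The difference of responses was 2.08 ± 0.62 (adjusted p = 0.037), and 1.26 (adjusted p = 0.0793) in the fit of 25 libraries, which leaves out that library. NAS3 was at 13.3, 10.2 and 11.8 CPM in Col-0 −Fe−Cu and at 23.6, 5.26 and 16.9 CPM in its control, with a difference of −2.75 ± 0.68 (adjusted p = 0.0127), and of −2.36 (adjusted p = 0.00189) in the fit of 25 libraries. Of 9 iron storage genes 0 differences passed edgeR's test with all libraries (4 at an unadjusted p under 0.05) and 3 were lower in spl7 in the fit of 25. Tetrapyrrole genes had 5 lower and 0 higher differences of 25, and photosystem genes 4 lower and 0 higher of 40; in the fit of 25 libraries there were 8 lower and 1 higher tetrapyrrole and 7 lower and 0 higher photosystem differences. Clock genes differed in both directions, 7 higher and 7 lower of 19. Between Col-0 −Fe−Cu and the Col-0 control 8 of the 19 clock genes rose and 9 fell, whereas 0 passed between the spl7 groups. The part of clock genes or of the time of harvest in the other differences was not tested. The calls numbered 2038 in the fit of 25 libraries and 1005 without spl7 −Fe−Cu replicate 1.

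**Figure D5:**
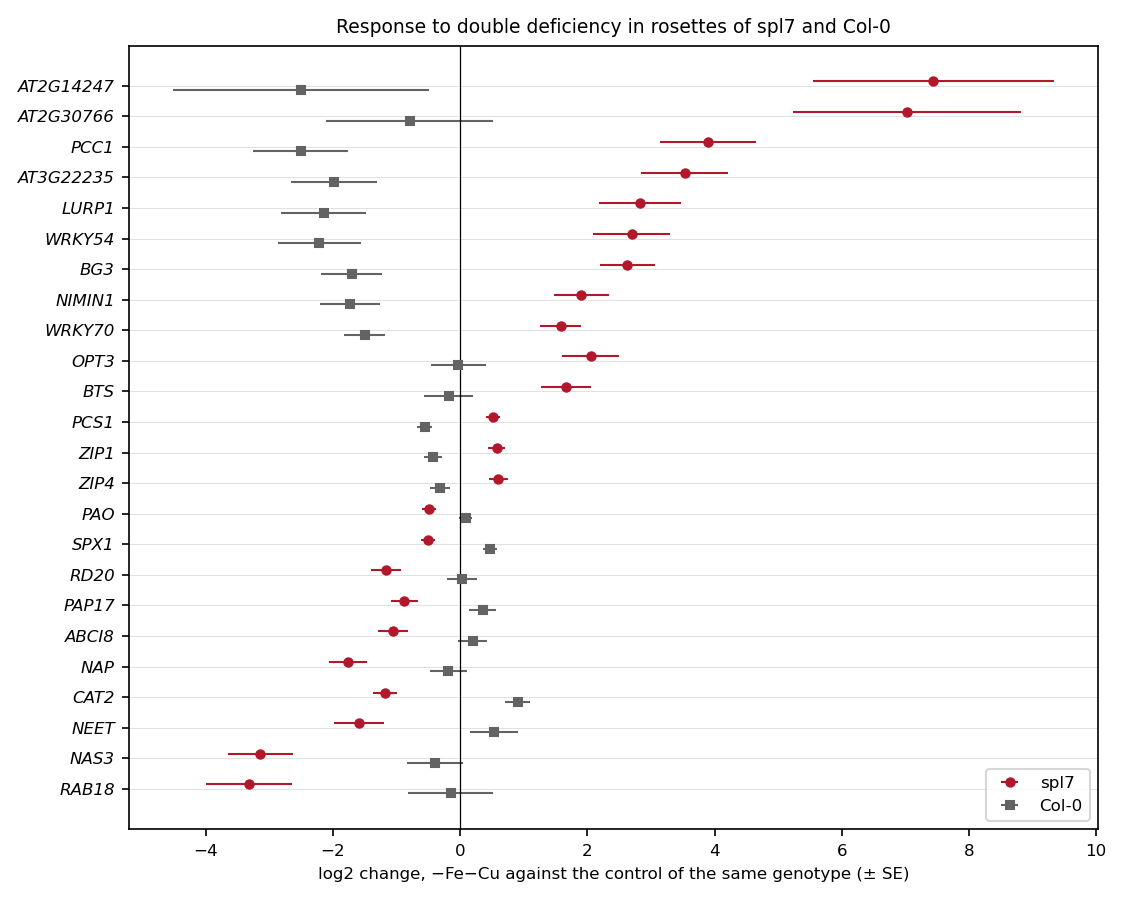
Log2 change ± SE in −Fe−Cu against the control of the same genotype, for spl7 (red circles) and Col-0 (grey squares), for the 24 named genes whose responses differed between the genotypes. PCC1, LURP1 and WRKY70 lie right of 0 in spl7 and left of 0 in Col-0, and CAT2 lies left of 0 in spl7 and right of 0 in Col-0.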

How the data were processed

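Total RNA of rosettes was sequenced, with 3 libraries per group that the labels call biological replicates, without saying whether plants or containers were separate, so p-values measure the spread between these samples. The deposited values are whole-number read counts per gene, 1 table per library, which the authors made with Bowtie and HTSeq on TAIR10 per the submitters' processing notes; versions and the strand setting are not given in the sources used here, so reads of overlapping genes on opposite strands cannot be assigned with certainty. Each library listed 33610 genes.

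The 27 rosette libraries (9 groups, each of 3) were fitted together by group with edgeR 4.0.16 in R 4.3.3 (TMM scaling, removal of low-count genes at a minimum count of 10 and minimum total of 15, quasi-likelihood test, 18 residual degrees of freedom, biological coefficient of variation 0.104), leaving 20015 genes. The standard error is the size of the log2 change divided by the square root of the F statistic. CPM use TMM-adjusted library sizes. A gene passed at a Benjamini-Hochberg adjusted p below 0.05 over all genes tested. Two-sided intervals of ratios at 1 or 2 counts are exact at 95% and cover counting error only. On simulated counts of 19809 genes for −Fe−Cu against control, the fit recovered 81 of 100 genes changed 2-fold and 99 of 100 changed 4-fold, with 4 false calls. The simulation gave all libraries the same mean per gene outside the planted changes and drew from the fitted dispersions. Changes were planted only in genes above 1 CPM. It held no deviating libraries, so it does not show how the test behaves with them.

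The 30 gene lists (391 members) and the members of the comparison were chosen with earlier results of these data known. Named genes are SPL7, all tested members of the copper and iron lists and up to 4 called members per other list with the largest change. Added to them are the 10 largest rises and falls of the main comparison and 5 of each other, among called genes reaching 1 CPM. For these rises and falls the replicates of the compared groups also had to lie apart, except in the contrasts of responses and of the sum. Genes named outside the rule are marked. Names and promoters came from the TAIR10.1 RefSeq annotation, which matched 28932 loci. Alternatives were DESeq2 1.42.0 size factors and its Wald test, no filter, a replicate block, the compared groups only, each compared library left out and, added after seeing the data, 25 libraries without −Cu replicate 3 and Col-0 control replicate 2.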

Additional observations from a re-analysis of the deposited data

Results flagged for a closer look

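For 24 of the 50 named genes called between −Fe−Cu and control spl7 rosettes, the response to the double deficiency differed between spl7 and Col-0 by the test of the difference itself (edgeR, adjusted p below 0.05), positive for 14 and negative for 10. Genotype and copper pretreatment cannot be told apart in that difference. Over all genes tested it passed for 1660 of 20015 (8.29%). The 50 genes were picked by the spl7 comparison that is itself part of the difference, so their higher share is no result. Values are spl7 minus Col-0 on the log2 scale.

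Among members of the iron lists the difference was 7.82 for AT2G30766, 2.08 for OPT3 and 1.84 for BTS, all with a rise in spl7. It was −2.75 for NAS3, −2.12 for NEET and −1.25 for ABCI8, all with a fall in spl7. In the salicylate list it was 3.63 for NIMIN1 and 3.08 for WRKY70. Among genes named as largest rises it was 9.94 for AT2G14247, 6.40 for PCC1, 5.52 for AT3G22235, 4.97 for LURP1, 4.91 for WRKY54 and 4.33 for BG3. These 8 had negative log2 changes in Col-0, between −2.50 for PCC1 and −1.50 for WRKY70, of which those of AT2G14247, AT3G22235 and LURP1 did not pass (adjusted p = 0.528, 0.0738 and 0.0504). In the fit of 25 libraries, without Col-0 control replicate 2, the Col-0 change still passed for NIMIN1 (−1.68) and WRKY70 (−1.30); it was −1.53 for PCC1, −1.03 for AT3G22235, −0.96 for LURP1, −1.59 for WRKY54, −1.10 for BG3 and 2.80 for AT2G14247 without passing (adjusted p = 0.127 to 0.75). Of the desiccation genes, RAB18 (AT5G66400) differed by −3.17 and RD20 by −1.19. The catalase gene CAT2 (AT4G35090) differed by −2.09, the senescence factor NAP by −1.58 and PAO by −0.57. Of nutrient genes, PAP17 differed by −1.23 and SPX1 by −0.98, while PCS1 (AT5G44070) differed by 1.08, ZIP1 by 1.00 and ZIP4 (AT1G10970) by 0.92.

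In the fit of 25 libraries, 19 of the 24 differences still passed. Those that did not were AT2G14247 (4.63, adjusted p = 0.815), AT2G30766 (3.55, adjusted p = 0.645), RAB18 (−3.11, adjusted p = 0.0635), OPT3 (1.26, adjusted p = 0.0793) and BTS (1.22, adjusted p = 0.0841).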

How the results depend on the processing

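Of the 422 genes called between −Fe−Cu and control rosettes, the count was 425 with DESeq2 size factors, 608 with DESeq2's Wald test, 424 without the filter and 522 in the fit of 25 libraries, and 807 with only the compared groups in the fit. Leaving out 1 library gave 42 to 301. Only the compared groups gave 20 calls between −Fe−Cu and −Cu and 308 for the departure from the sum. The other counts with 1 library left out were 1898 to 3339 against −Fe, 856 to 3645 against −Cu, 1005 to 1816 for spl7 minus Col-0 and 535 to 1759 for the departure from the sum. With the replicate block 391 genes were called in the main comparison, and 45 of the 50 named called genes still passed, all but YSL1, ZIP4 (AT1G10970), AT3G56360, AT2G42560 and AT3G17520 (adjusted p 0.0522 to 0.0726). The deviations of same-numbered libraries from their group means correlated at −0.124 to −0.053 between −Fe−Cu and control, at 0.04 to 0.12 between −Fe−Cu and −Fe, each −Fe−Cu library being closest to its own number, and at −0.016 to 0.113 between −Fe−Cu and −Cu, so the numbers were not taken as pairs; the block gave 3547 calls against −Fe and 2663 against −Cu. None of these 50 genes changed sign in the main comparison. The other named genes and the other comparisons were not counted for changes of sign. All 50 passed with DESeq2's size factors, with its Wald test and without the filter, 49 in the fit of 25 libraries and 44 of 47 with only the compared groups; with 1 library left out between 7 (without control replicate 1) and 34 (without control replicate 2) passed. NAS3, FER1, NAP, CAT2, BG3 and LEA7 passed throughout.

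Groups of 3 limit what can be called, and a gene that did not pass is not shown to be equal. Low-count genes such as BHLH38 and BHLH100 have wide intervals. The cause of the differences between settings was not tested, beyond the smaller number of samples where libraries were left out.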

Other observations

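Loci outside the lists also separated −Fe−Cu from −Fe. AT3G49160 was at 5.45, 6.41 and 6.46 CPM in −Fe−Cu, at 0.0569, 0.127 and 0.527 CPM in −Fe and at 33.6, 29.8 and 34.9 CPM in control rosettes, so it lay between those groups (log2 change against −Fe 4.63 ± 1.1, adjusted p = 0.00484, and against control −2.42 ± 0.56, adjusted p = 0.023). AT3G55646 was at 7.23, 5.97 and 7.13 CPM in −Fe−Cu, at 0.341, 0.509 and 0.644 CPM in −Fe and at 5.35, 6.76 and 4.44 CPM in control rosettes, and stood at the control level (log2 change against −Fe 3.75 ± 0.32, adjusted p = 7.56e-08). AT2G36885 was at 23.7, 23.5 and 21.7 CPM in −Fe−Cu, at 1.19, 2.67 and 2.4 CPM in −Fe and at 40.8, 40.5 and 37.3 CPM in control rosettes, and departed from the sum of the single deficiencies by 3.70 ± 0.45 (adjusted p = 5.37e-05). CHAT, an acetyltransferase gene of green leaf volatile synthesis, was at 1.57, 2.55 and 1.28 CPM in −Fe−Cu, at 0.171, 0 and 0.176 CPM in −Fe and at 6.61, 4.77 and 3.44 CPM in control rosettes.

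Other large values came from 1 library. CYP94B3, a cytochrome P450 gene of jasmonate turnover, was at 12.0, 2.55 and 0.183 CPM in −Fe−Cu and at 0, 0.464 and 0 CPM in control rosettes of spl7, and at 0, 0 and 0.0594 CPM in −Fe−Cu and 20.1, 1.3 and 1.46 CPM in control rosettes of Col-0. RRTF1 was at 18.1, 0.703 and 0 CPM in spl7 −Fe−Cu and at 26.7, 1.53 and 1.73 CPM in the Col-0 control. In both genes replicate 1 of spl7 −Fe−Cu and replicate 1 of the Col-0 control held most of the reads.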
